A study of Homo sapiens with 6 samples.

Results

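The genes described here are 8 genes of haematopoietic stem and progenitor transcription factors, GATA2, TAL1, LYL1, LMO2, ERG, FLI1, MYB and LDB1, taken by name from a table of 29810 genes. All 8 were found, and all 8 passed the filter on low values (1 FPKM or more in 3 libraries or more), as did 11913 genes in total. Kasumi-1 cells are leukaemic human myeloblasts that carry the t(8;21) translocation, which fuses RUNX1 to RUNX1T1. The series compared 3 Kasumi-1 samples given I1 at 0.125 µM for 48 h with 3 samples given control for 48 h. I1 is known here only by its code name, and the labels do not say what the control was. All samples are of this 1 line. FPKM is the number of fragments per unit of gene length and of library size. Levels of different genes can thus be compared per length, here the length of all annotated exons of a gene, used or not.

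In blood stem cells GATA2, TAL1, LYL1, LMO2, ERG, FLI1 and RUNX1 bind many enhancers together, and the group is known as the heptad. TAL1 and LYL1 are helix-loop-helix proteins that bind E-box DNA with an E protein as partner, LMO2 binds no DNA and bridges them to GATA factors, and LDB1 holds LMO2 and dimerises, which joins distant sites. ERG and FLI1 are ETS factors and MYB is a factor of cycling progenitors. In cells with the t(8;21) fusion, the fusion protein has been isolated in a complex with CBFB, E proteins, LYL1, LMO2 and LDB1, and ERG and FLI1 have been found at its binding sites.

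RefSeq promoter windows, from 250 bases before to 50 bases after a gene's start on GRCh38.p14, matched 6 of the 8 genes, with 11 windows. Windows of 4 genes are shown because their transcripts stand apart among the 8 in the data below. LYL1 had the highest level and the most negative fold change, GATA2 and TAL1 were the pair most alike in profile, and MYB varied least. Capitals mark GATAA, the letters searched for here for GATA factors, or TTATC, the same letters on the other strand. The bases on either side of these letters were not part of the search. Each sequence runs 5′ to 3′ on the gene's strand, minus for the first 3 genes and plus for MYB.
LYL1 chr19:13102809-13103108: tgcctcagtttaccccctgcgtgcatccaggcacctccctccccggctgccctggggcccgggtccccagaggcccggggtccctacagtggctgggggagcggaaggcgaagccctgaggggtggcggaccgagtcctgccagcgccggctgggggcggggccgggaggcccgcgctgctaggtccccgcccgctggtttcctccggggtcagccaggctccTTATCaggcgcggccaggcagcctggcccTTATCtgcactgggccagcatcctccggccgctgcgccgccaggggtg
TAL1 chr1:47232286-47232585: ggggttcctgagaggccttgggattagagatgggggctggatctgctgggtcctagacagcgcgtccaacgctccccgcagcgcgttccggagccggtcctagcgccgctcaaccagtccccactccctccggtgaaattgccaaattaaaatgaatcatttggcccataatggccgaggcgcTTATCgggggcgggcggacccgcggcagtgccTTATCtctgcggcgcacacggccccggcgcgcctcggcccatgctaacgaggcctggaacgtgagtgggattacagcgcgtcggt
GATA2 chr3:128493152-128493451: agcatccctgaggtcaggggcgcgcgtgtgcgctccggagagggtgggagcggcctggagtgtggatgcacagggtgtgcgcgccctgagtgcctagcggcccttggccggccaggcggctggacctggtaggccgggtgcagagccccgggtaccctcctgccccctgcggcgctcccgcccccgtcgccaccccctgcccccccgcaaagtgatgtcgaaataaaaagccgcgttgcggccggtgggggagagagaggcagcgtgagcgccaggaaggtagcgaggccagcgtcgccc
MYB chr6:135181058-135181357: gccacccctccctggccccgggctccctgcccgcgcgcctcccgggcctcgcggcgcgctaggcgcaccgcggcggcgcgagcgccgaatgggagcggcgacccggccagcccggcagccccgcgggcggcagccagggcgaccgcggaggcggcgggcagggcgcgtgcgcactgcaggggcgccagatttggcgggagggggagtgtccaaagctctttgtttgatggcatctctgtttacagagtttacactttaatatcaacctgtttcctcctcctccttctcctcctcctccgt
The windows of LYL1 and TAL1 each hold GATAA at 2 places, and those of GATA2 and MYB at 0. Over 35116 windows of 300 bases, 22.7% hold GATAA on either strand and 4.80% hold it at 2 or more places. The E-box letters CANNTG stand at 1 place in the TAL1 window and at 0 in the other 3 (68.7% of all windows have them), and the ETS letters GGAAG at 1 place each in the LYL1 and GATA2 windows (71.9%). The RUNX letters TGTGGT are in none of the 4 windows shown (13.1%), and the MYB letters AACNG are at 2 places in the MYB window, 1 in that of LYL1 and 0 in those of TAL1 and GATA2 (77.2%). No 2 of these motifs overlapped in the 4 windows. A match of letters is a description of the window. Gene-level values do not tell which start was used, and TAL1 and GATA2 have 2 windows each, whose letters differ. The TAL1 window shown lies wholly before the 5′ end of TAL1 in the gene coordinates used here, at 47232220. The second window of TAL1 holds the GATA and E-box letters at 0 places and the RUNX, ETS and MYB letters at 3 places each, and 1.31% of all windows hold the RUNX letters at 2 or more. The second window of GATA2 holds the E-box letters at 4 places, the MYB letters at 1 and those of GATA, ETS and RUNX factors at 0.

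The library totals recovered from the FPKM values were 16391000 to 16948000 reads with I1 and 17331000 to 18204000 in control. Markers of the line were present in all libraries: MPO, a granule enzyme of myeloblasts, averaged 6712 ± 357 FPKM with I1 and 8054 ± 1219 in control (SD, n = 3 each), KIT 196 ± 6.88 and 162 ± 15.7, CD34 38.3 ± 12.4 and 39.5 ± 13.2, and RUNX1T1 17.5 ± 0.811 and 13.9 ± 1.63. AZU1 averaged 533 ± 83.3 FPKM with I1 and 608 ± 181 in control, CD33 11.9 ± 2.77 and 13.5 ± 2.81, and IL3RA 4.32 ± 0.991 and 4.96 ± 1.40. Control replicate 1 stood apart from the other 5 libraries on the first principal component, which held 52.1% of the variance (-43.8, against -2.90 to 19.8). Across 11899 genes, which are not independent, GC-rich transcripts were higher in that library than in the other controls (Spearman's rho 0.677) and lower with I1 (rho -0.763). Both facts touch the results below, and for each of the 8 genes the values without that library and after a correction for GC content are given.

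The levels of the 8 genes spanned from 3.01 to 164 FPKM. LYL1 was the highest, with a mean over the 6 libraries of 101 FPKM, above 97.6% of the tested genes, and TAL1 the lowest, with a mean of 5.13 FPKM, above 42.7% of them. Between them came MYB with a mean of 58.5, LDB1 with 38.7, LMO2 with 34.4, FLI1 with 18.7, GATA2 with 14.96 and ERG with 13.4 FPKM. The ranges of LYL1 and MYB did not overlap, nor did those of MYB and LDB1, where the lowest MYB value was 54.6 and the highest LDB1 value 54.0 FPKM. The ranges of LDB1 and LMO2 overlapped, as did those of FLI1 and GATA2 and of GATA2 and ERG, so the order within these pairs is not set by the data. LMO2 lay above FLI1, and ERG above TAL1, in 6 of 6 libraries. The order rests on the exon length used: in reads over the 6 libraries MYB had 33143 and LYL1 32789. The 8 genes together took 0.111%, 0.0880% and 0.0867% of all FPKM in I1 replicates 1 to 3 and 0.134%, 0.0904% and 0.102% in control replicates 1 to 3. Reads behind a value numbered 285 to 9313, which gives exact Poisson 95% intervals of 2.04% to 11.8% on either side of a value, for counting error only.

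**Figure D1:**
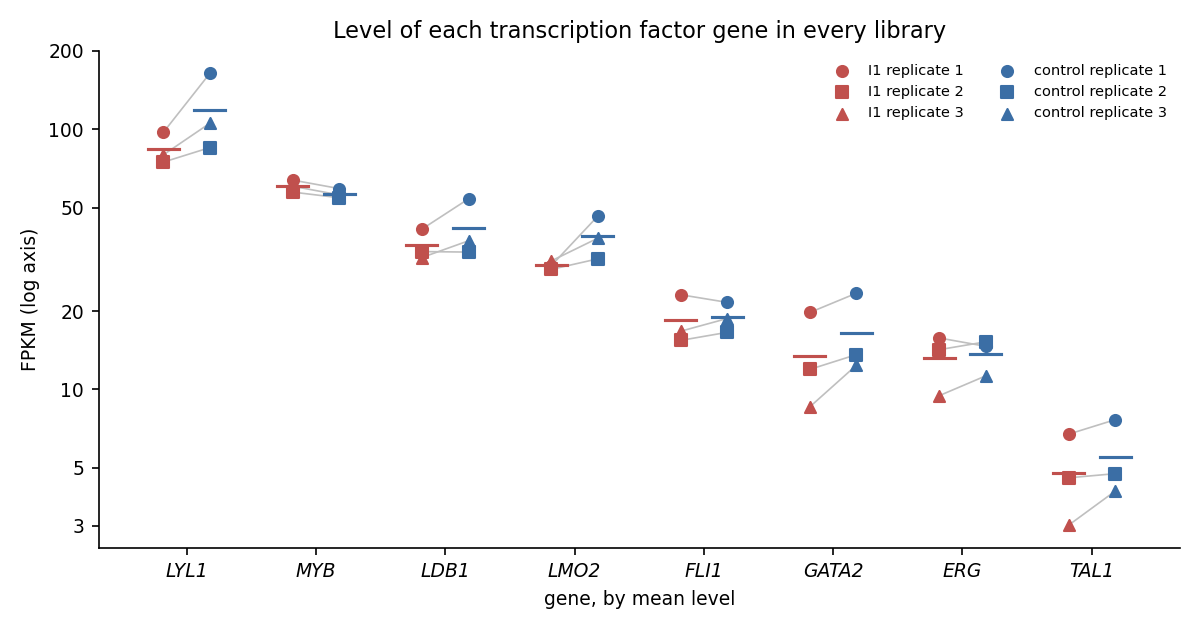
FPKM of the 8 genes on a log axis, I1 left and control right of each gene, 1 symbol per library, with lines between same-numbered libraries and bars at the group means. LYL1 runs from 74.8 to 164 FPKM and TAL1 from 3.01 to 7.65, and only for LMO2 do the I1 and control points not overlap.

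Most close relatives of these genes were silent or nearly so. GATA2 was the only one of the 4 GATA genes used here above 1 FPKM: GATA1, the factor of red cells and platelets, had 4 reads in the 6 libraries together, GATA3, of T cells, stayed at 0.0869 to 0.532 FPKM, and GATA6 had 7 reads. Among relatives of TAL1 and LYL1, TAL2 had 9 reads and NHLH1 29. Of the other LIM-only genes, LMO4 averaged 6.58 ± 0.731 FPKM with I1 and 6.86 ± 0.368 in control, and LMO1 and LMO3 had 1 and 24 reads. LDB2, the other LIM-binding gene, had 0 reads, and a floor of 3 reads would be 0.0295 to 0.0328 FPKM for its length. In the ETS family FLI1 and ERG stood below SPI1, which encodes the myeloid factor PU.1 and averaged 88.0 ± 4.95 FPKM with I1 and 113 ± 9.87 in control, and below ETV6 and ETS2 at 33.9 and 32.7 FPKM with I1 and 31.9 and 32.0 in control. ETS1 had 5 reads in all. MYBL2, a relative of MYB found in cycling cells, averaged 79.4 ± 10.5 FPKM with I1 and 98.9 ± 4.68 in control, whereas MYBL1 stayed under 0.283 FPKM. RUNX1, the heptad gene fused in this line, averaged 34.5 ± 0.991 FPKM with I1 and 31.0 ± 3.29 in control, close to LMO2 in level.

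**Figure D2:**
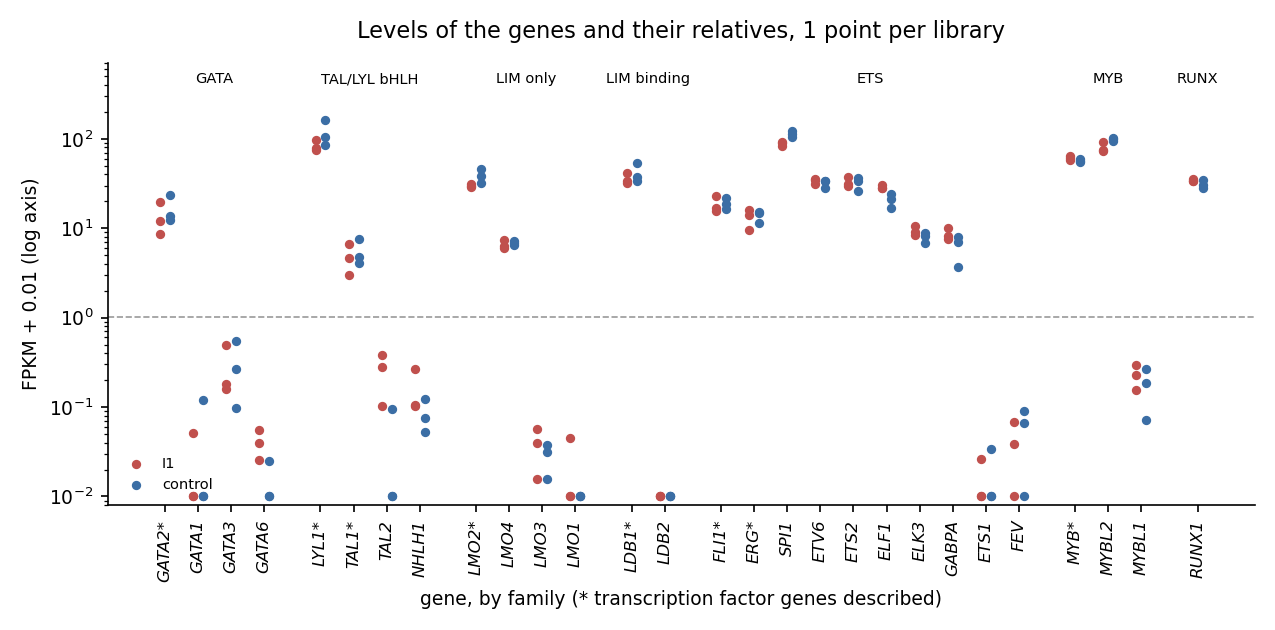
FPKM + 0.01 on a log axis for the 8 genes (starred) and their relatives by family, 1 point per library, I1 left and control right of each gene, with a dashed line at 1 FPKM. Each GATA gene but GATA2 and each LIM-binding gene but LDB1 lies under 1 FPKM in all libraries, and 6 of 8 other ETS genes lie above it.

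Of the 8 genes, 0 rose and 0 fell by limma at an adjusted p under 0.05, where 0.0336% of the 11913 tested genes passed, and 0 of the 8 had an unadjusted p under 0.05, against 9.57% of all tested genes. Fold changes were below 0 for 7 of the 8, with a median log2 fold change of -0.19, against 45.5% and a median of 0.03 over all tested genes. They are I1 minus control on the scale of log2(FPKM + 1). Without control replicate 1, 4 of the 8 were below 0 with a median of -0.010, against 46.5% and a median of 0.02 over all tested genes. Without I1 replicate 3 the median of the 8 was -0.018. The groups did not overlap for 1 of the 8, which was lower with I1, against 21.6% of all tested genes and 8.74% that were lower. In the 3 same-numbered pairs, 4 of the 8 (GATA2, TAL1, LYL1 and LMO2) were lower with I1 in 3 of 3, against 25.8% of all tested genes, and 1 (MYB) was higher in 3 of 3, against 32.1%. The fit above did not use the replicate numbers, though a check of all genes found that same-numbered libraries varied together. With the number as a block the unadjusted p was under 0.05 for 3 of the 8, against 27.1% of all tested genes. The adjusted p was under 0.05 for 0 of the 8, against 0.0504%. Separate cultures are not mentioned in the labels, so the p-values reflect the spread of these 6 samples alone, and that spread may be technical. In such bulk samples, fewer cells with a transcript and less of it in each cell cannot be told apart.

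LYL1 (ENSG00000104903; hg38 chromosome 19, 13099033 to 13103161, minus strand), the helix-loop-helix factor of the fusion complex, had 97.3, 74.8 and 79.7 FPKM in I1 replicates 1 to 3 and 164, 85.0 and 106 FPKM in control replicates 1 to 3. I1 replicates 2 and 3 lay below all controls, but I1 replicate 1 lay above control replicate 2, so that the groups overlapped. The mean was 83.9 ± 11.8 FPKM with I1 and 118 ± 41.0 in control (SD, n = 3 each), a ratio of 0.710. The log2 fold change was -0.44 ± 0.24 (SE) with a 95% interval of -0.99 to 0.10 and a limma adjusted p of 0.467. Without control replicate 1 it was -0.18 and after the GC correction -0.22. With the replicate number as a block the interval was -0.72 to -0.17 (limma adjusted p = 0.140). Tested among protein-coding genes alone with that block, LYL1 passed at an adjusted p of 0.0417, in a fit that called 6.31% of 9858 genes and 1.54% as lower. Leaving out both libraries numbered 1 from that fit, a setting chosen after seeing the data, gave a log2 fold change of -0.29 (limma adjusted p = 0.00593), where 13.9% of genes were called and 5.94% were called lower. Among protein-coding genes with the block, the GC correction and all 6 libraries, also chosen after seeing the data, it was -0.21 (limma adjusted p = 0.139), and 0.183% of genes were called. Its adjusted p lay between 0.00593 and 0.967 across the settings tried.

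TAL1 (ENSG00000162367; chromosome 1, 47216290 to 47232220, minus strand), the relative of LYL1 with the same partners, was far less abundant. It had 6.73, 4.58 and 3.01 FPKM in I1 replicates 1 to 3 and 7.65, 4.75 and 4.07 FPKM in control replicates 1 to 3. In both groups the library numbered 1 was the highest and the one numbered 3 the lowest, and the groups overlapped. Its log2 fold change was -0.18 ± 0.28 (SE), with an interval of -0.82 to 0.46 and a limma adjusted p of 0.739. It was 0.05 without control replicate 1, 0.06 without I1 replicate 3, -0.42 without I1 replicate 1 and -0.10 after the GC correction. LYL1 exceeded TAL1 by 14.4-fold to 26.5-fold across the libraries. The LYL1 share of the FPKM of both was 93.5%, 94.2% and 96.4% with I1 and 95.5%, 94.7% and 96.3% in control, a mean of 94.7 ± 1.48% and 95.5 ± 0.788%. The difference of -0.806 percentage points had an exact permutation p of 0.50 (2-sided; adjusted over the 2 shares tested 1.00), where 3 against 3 libraries cannot go below 0.10. TAL1 shares 845 exon bases with AL135960.1 on the other strand, which reached at most 0.0605 FPKM.

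LMO2 (ENSG00000135363; chromosome 11, 33858576 to 33892289, minus strand), the bridging protein, was the only one of the 8 whose groups did not overlap. It had 29.9, 28.9 and 31.2 FPKM in I1 replicates 1 to 3 and 46.4, 31.8 and 38.2 FPKM in control replicates 1 to 3. The highest I1 value lay just under the lowest control value, and the I1 libraries differed less among themselves (coefficient of variation 3.76%, against 18.9% in control). Means were 30.0 ± 1.13 FPKM with I1 and 38.8 ± 7.32 in control (SD, n = 3 each). The log2 fold change was -0.34 ± 0.15 (SE), with an interval of -0.69 to 0.0031 and a limma adjusted p of 0.467. It was -0.21 without control replicate 1 and -0.22 after the GC correction. LMO2 passed in 0 of 21 alternatives and was below 0 in 21 of them, with adjusted p-values from 0.0601 to 0.967. Several of these alternatives, such as another filter, cannot move the fold change and so repeat its value.

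LDB1 (ENSG00000198728; chromosome 10, 102107560 to 102120453, minus strand), which pairs with LMO2, had 41.3, 33.9 and 32.2 FPKM in I1 replicates 1 to 3 and 54.0, 33.7 and 37.3 FPKM in control replicates 1 to 3. Control replicate 1 was high, and the other 5 libraries lay between 32.2 and 41.3 FPKM. The log2 fold change was -0.19 ± 0.19 (SE), with an interval of -0.63 to 0.25 (limma adjusted p = 0.613). Without control replicate 1 it was 0.0048 and after the GC correction -0.01. Control replicate 1 lay 0.59 above the mean of the other controls on the log2 scale.

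GATA2 (ENSG00000179348; chromosome 3, 128479427 to 128493185, minus strand), the zinc finger factor of the group, had 19.8, 11.9 and 8.58 FPKM in I1 replicates 1 to 3 and 23.4, 13.6 and 12.4 FPKM in control replicates 1 to 3. As with TAL1, the libraries numbered 1 were the highest of both groups and those numbered 3 the lowest, and the spread within a group (coefficient of variation 42.7% with I1 and 36.7% in control) was larger than the difference between the group means. The log2 fold change was -0.30 ± 0.32 (SE), with an interval of -1.03 to 0.43 and a limma adjusted p of 0.636. Within the same-numbered pairs the log2 differences were -0.23, -0.17 and -0.48, and with the block the interval was -0.54 to -0.06 (limma adjusted p = 0.148). It was -0.03 without control replicate 1 and -0.60 without I1 replicate 1. Among protein-coding genes with the block and without both libraries numbered 1, GATA2 had a log2 fold change of -0.33 and passed (limma adjusted p = 0.00878, with 13.9% of genes called), in a range over all alternatives up to 0.988. After the GC correction it was -0.09.

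GATA2 and TAL1 had the most alike profiles of all pairs of the 8 genes. Each gene's log2 values were centred on their mean over the 6 libraries, and the profiles then differed by a root mean square of 0.10, against 0.15 to 0.43 for the other pairs. The ratio of GATA2 to TAL1 in FPKM stayed between 2.61 and 2.94 with I1 and between 2.87 and 3.06 in control, while each gene alone varied by 2.73-fold and 2.54-fold between its highest and lowest library. Genes outside the 8 were nearer to each of them, such as TRIM8 to GATA2 (0.087) and GIMAP6 to TAL1 (0.067). The libraries are shared, so the likeness of GATA2 and TAL1 is a description of these 6.

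**Figure D3:**
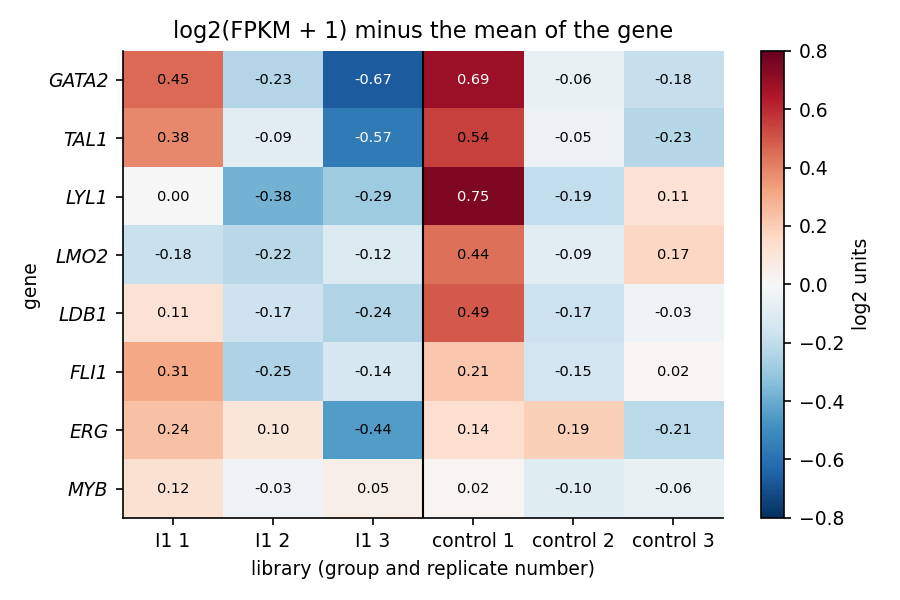
log2(FPKM + 1) minus the mean of the gene over the 6 libraries, genes in rows, I1 libraries left of the line and control libraries right of it, red above and blue below the mean. GATA2 and TAL1 share a pattern (0.45 and 0.38 in I1 replicate 1, -0.67 and -0.57 in I1 replicate 3), control replicate 1 is highest for 5 of the 8 genes, and MYB stays within -0.10 and 0.12.

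FLI1 (ENSG00000151702; chromosome 11, 128686535 to 128813267, plus strand) and ERG (ENSG00000157554; chromosome 21, 38380027 to 38661780, minus strand), the ETS factors of the heptad, were expressed at like levels. FLI1 had 23.1, 15.4 and 16.7 FPKM in I1 replicates 1 to 3 and 21.6, 16.6 and 18.7 FPKM in control replicates 1 to 3. ERG had 15.8, 14.2 and 9.47 FPKM in I1 replicates 1 to 3 and 14.7, 15.2 and 11.3 FPKM in control replicates 1 to 3. For both genes the groups overlapped over most of their range. The log2 fold change was -0.05 ± 0.17 (SE) for FLI1, with an interval of -0.45 to 0.35 (limma adjusted p = 0.886), and -0.07 ± 0.20 for ERG, with an interval of -0.54 to 0.39 (limma adjusted p = 0.855). For FLI1 it was 0.04 without control replicate 1, -0.22 without I1 replicate 1 and -0.18 after the GC correction. For ERG it was -0.03 without control replicate 1, 0.13 without I1 replicate 3, -0.21 without I1 replicate 1 and -0.17 after the GC correction. The FLI1 share of the FPKM of both was 59.5%, 52.0% and 63.9% in I1 replicates 1 to 3 and 59.6%, 52.1% and 62.4% in control replicates 1 to 3. Both libraries numbered 2 were the lowest of their groups and both numbered 3 the highest. Means were 58.5 ± 5.98% with I1 and 58.0 ± 5.34% in control, a difference of 0.421 percentage points (exact permutation test, 2-sided p = 1.00). SENCR, a noncoding gene that shares 162 exon bases with FLI1 on the other strand, had 0.417 to 2.12 FPKM.

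MYB (ENSG00000118513; chromosome 6, 135181315 to 135219173, plus strand), which keeps progenitors cycling, was the steadiest of the 8. It had 63.8, 57.4 and 60.4 FPKM in I1 replicates 1 to 3 and 59.2, 54.6 and 55.9 FPKM in control replicates 1 to 3. Each I1 library lay above the control library of the same number, but I1 replicate 2 lay below control replicate 1. The coefficient of variation was 5.32% with I1 and 4.17% in control, and the highest library was 1.17-fold the lowest. The log2 fold change was 0.10 ± 0.11 (SE), the only one above 0, with an interval of -0.16 to 0.35 and a limma adjusted p of 0.660. It was 0.13 without control replicate 1 and -0.065 after the GC correction. MYB-AS1, on the other strand with 103 shared exon bases, had 1.03 to 2.37 FPKM.

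**Figure D4:**
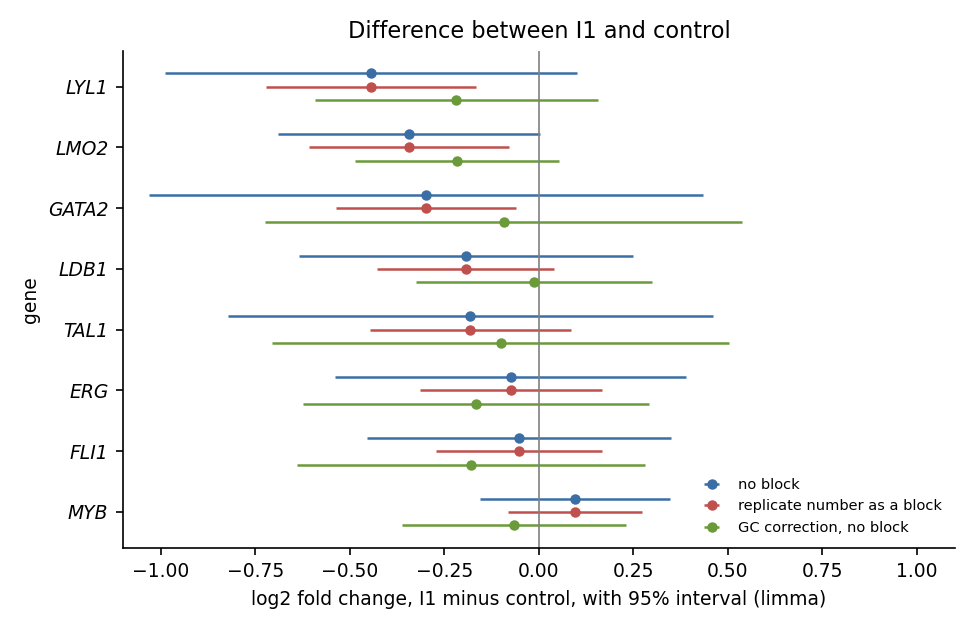
log2 fold change of each gene, I1 minus control, with 95% intervals from limma without a block, with the replicate number as a block and after a correction for GC content. Without the block all 8 intervals reach 0 or beyond; with it those of LYL1, LMO2 and GATA2 lie below 0 before adjustment over all genes.

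The shares of LYL1 and MYB, the most abundant of the 8 genes, varied over the libraries. LYL1 took 32.7%, 31.0% and 33.0% of the summed FPKM of the 8 genes in I1 replicates 1 to 3 and 42.0%, 33.3% and 37.2% in control replicates 1 to 3. MYB took 21.4%, 23.8% and 25.04% in I1 replicates 1 to 3 and 15.1%, 21.4% and 19.7% in control replicates 1 to 3. Neither share overlapped between the groups, by a small margin in each case, and both were noticed in the data and not tested. The shares of the other genes of the 8 overlapped, and the levels of 21.6% of all tested genes did not. LYL1 and MYB had the highest and lowest GC content of the 8 (64.8% and 44.4%), and the shares carry no GC correction. The shares of one sum are tied to each other, and control replicate 1 held both the highest LYL1 share and the lowest MYB share. The summed level was 298, 241 and 241 FPKM in I1 replicates 1 to 3 and 391, 255 and 283 FPKM in control replicates 1 to 3.

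The fold changes of the 8 genes followed the GC content of their transcripts. MYB, FLI1 and ERG had a GC content of 44.4%, 45.5% and 46.7% and log2 fold changes of 0.10, -0.05 and -0.07. TAL1 and LMO2 had 53.8% and 56.1% and log2 fold changes of -0.18 and -0.34. LDB1, GATA2 and LYL1 had 59.9%, 62.6% and 64.8% and log2 fold changes of -0.19, -0.30 and -0.44. Over the 8 genes, which share the same 6 libraries, Spearman's rho was -0.929, and -0.714 without control replicate 1. All tested genes with a GC content above 60%, 1640 in number, had a median log2 fold change of -0.21, and the 4255 at or below 45% one of 0.27. After the correction, the 8 genes lay between -0.22 and -0.01 with a median of -0.13, against -0.0042 for all tested genes, and adjusted p-values were 0.967 to 0.999 by limma. That correction takes out any difference that follows GC content, whatever its source, so it is no test of GC content. What part GC content has in the difference was not tested.

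**Figure D5:**
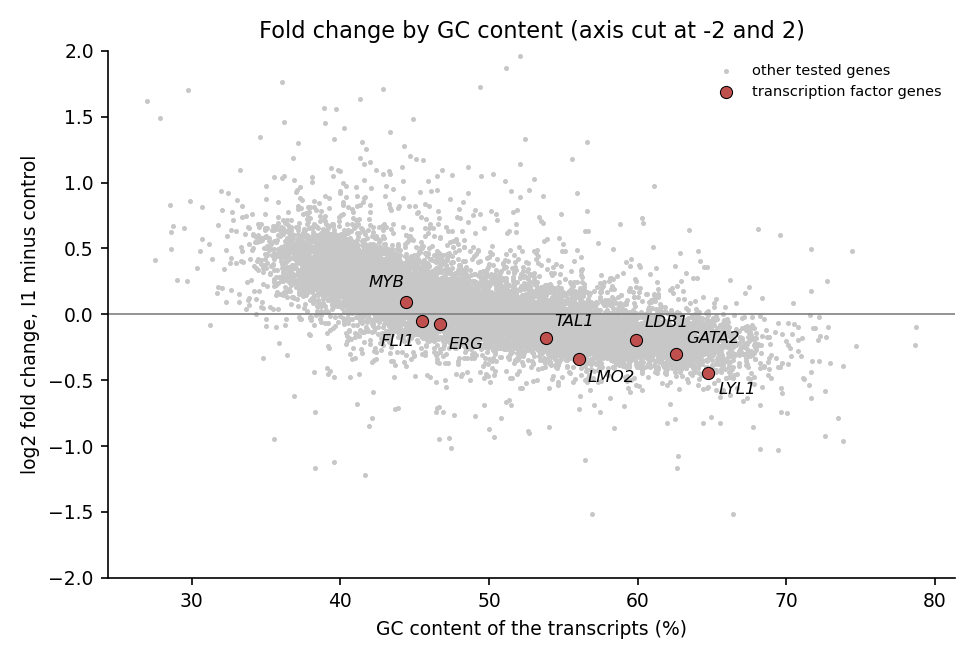
log2 fold change, I1 minus control, against the GC content of the transcripts in percent, for the tested genes (grey) and the 8 transcription factor genes (red); 5 genes lie outside the axis limits of 2 in size. The 8 genes run from 0.10 for MYB at 44.4% to -0.44 for LYL1 at 64.8%, within the grey band.

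Genes that work with these factors were read from lists. Of 18 tested partners in their complexes (E proteins, SSBP proteins, RUNX1 and CBFB, corepressors and coactivators), 0 rose, 0 fell and 18 did not pass by limma, 1 with an unadjusted p under 0.05 (9.57% of all tested genes), and the median log2 fold change was 0.04. The most abundant were CHD4, a chromatin remodeller, at 96.1 ± 6.43 FPKM with I1 and 92.0 ± 4.97 in control, and KDM1A, a histone demethylase, at 52.4 ± 5.96 and 56.0 ± 6.39. The other partners of the fusion complex, chosen after their values were seen, were all present: the E protein gene TCF3 averaged 38.4 ± 3.51 FPKM with I1 and 45.4 ± 5.53 in control, TCF12 18.2 ± 1.12 and 16.2 ± 2.21, and CBFB 21.2 ± 3.33 and 17.2 ± 4.43. SSBP4, of a family that shields LDB1 from degradation, held the unadjusted p under 0.05, at 25.1 ± 3.24 FPKM with I1 and 36.0 ± 8.68 in control (log2 fold change -0.49, limma adjusted p = 0.467, GC content 67.6%). Without control replicate 1 the median of the partners was -0.04. Of 8 tested relatives, 0 passed by limma and 3 had an unadjusted p under 0.05, where 9.57% of all tested genes did. These 3 went both ways. The log2 fold change was 0.48 for ELF1, -0.36 for SPI1 and -0.32 for MYBL2 (limma adjusted p = 0.467 for each). ELF1, an ETS factor, averaged 29.1 ± 1.27 FPKM with I1 and 20.8 ± 3.79 in control. Its GC content was 41.6%, and its log2 fold change was 0.22 after the GC correction. The values of SPI1 and MYBL2 carry no GC correction.

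Of 15 tested stem and progenitor genes that the heptad is known to bind, 0 rose and 0 fell by limma, 3 had an unadjusted p under 0.05, where 9.57% of all tested genes did, and the median log2 fold change was 0.08. These 3 were ANGPT1 at 0.58, IKZF2 at 0.54 and SPI1 at -0.36, all without a GC correction. Without control replicate 1 the median was -0.0038. KIT, named above, and GFI1, a repressor of myeloid progenitors at 131 ± 14.3 FPKM with I1 and 142 ± 15.1 in control, were the most abundant. MEIS1, MECOM and PROM1, which mark more primitive cells, were at or near 0: the highest value in a library was 0.0251 FPKM for MEIS1 and 0.00603 FPKM for MECOM, and PROM1 was listed at 0. They were named for their low values, and are among 7 of the 22 genes on this list that stayed under 1 FPKM in all libraries. CD34, on the same list, was present in all libraries, as given above. Of 13 tested MYB targets, 0 passed by limma, 2 had an unadjusted p under 0.05, against the same 9.57%, and the median log2 fold change was -0.04. These 2 were CDK6, a cell cycle kinase, at 0.66 and BCL2, a survival factor, at 0.46, both without a GC correction. MPO and ELANE, enzymes of the primary granules, led that list, with ELANE at 2525 ± 520 FPKM with I1 and 3141 ± 888 in control.

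The same factors also drive other lineages, and most of those lineages' genes were low. Of 13 erythroid genes used here, 9 stayed under 1 FPKM in all libraries, both alpha globin genes at 0, and the 4 tested, TAL1 among them, had 0 calls and 0 with an unadjusted p under 0.05. TFRC, the transferrin receptor, which all dividing cells use, was the most abundant at 114 ± 35.1 FPKM with I1 and 84.9 ± 35.4 in control, and EPOR, after TAL1 in level, was at 2.45 ± 0.324 and 3.42 ± 1.40. Of 13 megakaryocyte and mast cell genes 11 stayed under 1 FPKM, and GP1BA alone was tested, at 1.27 ± 0.460 FPKM with I1 and 1.13 ± 0.386 in control. Of 11 endothelial genes 8 stayed under 1 FPKM, among them CDH5, TEK and KDR, while ENG averaged 21.96 ± 1.75 FPKM with I1 and 25.2 ± 3.22 in control and ESAM 13.9 ± 7.74 and 18.1 ± 10.7. Of 9 lymphoid genes 5 stayed under 1 FPKM, and the most abundant tested ones were CD79B, at 4.18 ± 1.11 FPKM with I1 and 6.10 ± 2.36 in control, and CD79A, at 1.14 ± 0.579 and 1.26 ± 0.279. In the fit of all tested genes without a block, no tested gene of these 4 lists passed by limma or had an unadjusted p under 0.05. Calls in other fits are given below.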

How the data were processed

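RNA of 6 Kasumi-1 samples was measured by sequencing, 3 with I1 and 3 with control. Trizol was the RNA reagent and TruSeq Stranded mRNA the library kit, per the labels' protocols. The build was hg38 and the tools were HISAT2, HTSeq, Cufflinks and Trimmomatic, per the submitters' processing notes; not given in the sources used here are their versions, the annotation and whether counting used strand. Reads in exons shared with an antisense gene may thus be of either gene. The authors deposited 1 table of FPKM values. The table is named for different cells and a different compound; each of its 6 columns carries the title of 1 sample, and 0 columns were left out. GENCODE release 29 gave names, coordinates, exon lengths and GC content (length-weighted over a gene's transcripts) for 29703 of 29810 identifiers.

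FPKM times exon length gave whole reads within 0.05 reads in all libraries for 95.9% of these genes, the 8 genes included, and from this the library totals. Replicates differed by more than counting error in each pair (chi-square over its degrees of freedom, 26.1 to 89.3). The test of I1 against control was that of limma 3.58.1 (R 4.3.3; tables by Python 3.11.15), with a mean-variance trend, on log2(FPKM + 1) of genes at 1 FPKM or more in 3 libraries or more, 2-sided, with Benjamini-Hochberg adjustment over all tested genes and a threshold of 0.05. The pseudocount moved the fold changes of the 8 genes by at most 0.04. The fit was also run on simulated data without the pairing, the GC trend or the outlying library seen here. That run is thus no test of the calls in these data. Shares were compared by exact permutation. Same-numbered libraries had correlated deviations from their group means (0.476, 0.457 and 0.412) and other pairs of libraries correlations of -0.348 to -0.0987. As these deviations sum to 0 in each group, the negative values add no evidence. The positive values, and not the labels, are why the replicate number served as a block in the fits so named. The main fit, the other fits without a block and the exact permutation of shares took the samples as unpaired. For the GC correction, each gene's log2 values were taken as deviations from its mean over the libraries. A loess curve (span 0.3) of these deviations on GC content was removed from each library.

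The genes and lists were chosen with earlier results of these data known. Named are the 8 genes and RUNX1, markers of the line, and per list the changed members or, with none, the 2 most abundant tested ones; relatives, the markers of other lineages named at low values, the members with an unadjusted p under 0.05 and the partners of the fusion complex were chosen after their values were seen. For each of the 8 genes, the 2 protein-coding genes with a mean of at least 5 FPKM and the nearest centred profile are named under other observations.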

Additional observations from a re-analysis of the deposited data

How the results depend on the processing

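The number of the 8 genes past the adjusted p was 0 in all alternatives but those named here: it was 1 (LYL1, log2 fold change -0.44) among protein-coding genes with the replicate block, and 2 (LYL1 at -0.29 and GATA2 at -0.33) in that fit without both libraries numbered 1. Of all 9858 genes, the former fit called 6.31% (1.54% as lower) and the latter 13.9% (5.94% as lower). Fold changes of LYL1, LMO2 and GATA2 stayed below 0 in 21 of 21 alternatives. These are not separate checks of direction. A change of filter, or a block that keeps all libraries, cannot move a fold change, so several alternatives repeat the same value. That of MYB turned to -0.065 under the GC correction, with or without the block, and to -0.064 among protein-coding genes with both, and with array weights those of TAL1 and ERG turned to 0.032 and 0.075. The cause of these turns was not tested. Leaving out 1 library at a time gave log2 fold changes of -0.60 to -0.03 for GATA2, -0.42 to 0.056 for TAL1, -0.65 to -0.18 for LYL1, -0.47 to -0.21 for LMO2, -0.21 to 0.13 for ERG, -0.22 to 0.058 for FLI1, 0.06 to 0.13 for MYB and -0.33 to 0.0048 for LDB1, with 0 of the 8 called. The median of the 8 was lowest, at -0.32, with I1 replicate 1 left out and highest, at -0.010, with control replicate 1 left out; it was -0.018 without I1 replicate 3, -0.29 and -0.30 without control replicates 2 and 3, and -0.066 with array weights. The difference in the LYL1 share ranged from -1.63 to -0.216 percentage points and that in the FLI1 share from -2.55 to 3.63; with the block the exact sign-flip test on 3 pairs cannot go below 0.25.

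Over all tested genes 4 passed. With other pseudocounts, no filter, a mean of at least 5 FPKM, the GC correction or protein-coding genes alone 0 passed (593 to 1726 at an unadjusted p under 0.05 by limma); quantile normalization gave 2, the GC correction with the block 1, array weights 16, the block without the libraries numbered 1 gave 7, protein-coding genes with the block 622, without the libraries numbered 1 in that fit 1373, and with the GC correction in it 18. Leaving out 1 library gave 0 to 2. The last 3 fits, of protein-coding genes with the block, called 6.31%, 13.9% and 0.183% of 9858 genes. Of 59 tested genes of the other lists 0 were called, but 8, 13 and 1 in these 3 fits. The 8 were ELF1, CDK6, TFRC, ANGPT1 and BCL2, higher with I1, and SPI1, MYBL2 and SSBP4, lower; without the libraries numbered 1 these 8 were called in the same directions, with KIT higher and PECAM1, ESAM, CCNB1 and CD79B lower. The 1 was CDK6 (log2 fold change 0.46, limma adjusted p = 0.0442). With the replicate block over all tested genes, 6 passed and the call of no gene of the 8 changed. Counting error alone is at most 11.8% of a value, for TAL1, the gene with the fewest reads; the spread between libraries of a group was larger (coefficient of variation of TAL1 39.2% with I1 and 34.7% in control).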

Other observations

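Some genes outside the group had nearly the same profile over the 6 libraries as one of its genes, by the root mean square difference of centred log2 values among 6482 protein-coding genes. With 6 libraries and so many genes, near profiles are bound to be found, and nothing is drawn from them about function. Nearest to GATA2 were TRIM8 (0.09) and PWWP2B (0.09), and to TAL1 GIMAP6 (0.07) and NIPSNAP1 (0.08). Nearest to LYL1 were DUSP9 (0.06) and ZNF579 (0.06), to LMO2 TPRA1 (0.04) and C8orf82 (0.04) and to LDB1 MMP17 (0.03) and MATK (0.03). Nearest to ERG were F2R (0.03), a thrombin receptor, and RHOBTB1 (0.07), to FLI1 CHP1 (0.05) and CALCOCO2 (0.05) and to MYB ELP2 (0.03) and CCNI (0.04). The genes nearest to GATA2, LYL1, LMO2 and LDB1 had GC contents of 58.8% to 70.1% and those nearest to ERG, FLI1 and MYB 43.8% to 49.5%, above and below the median of 48.7% over all tested genes but for CHP1 at 49.5%.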
